A study of Mus musculus with 12 samples.

Results

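The interaction of Plekhg5 loss and the SOD1-G93A transgene was measured in RNA-seq of mouse spinal cord, over 12 of the 12 libraries of the study. Each of the 4 genotypes had 3 libraries from mice aged 7 months: Plekhg5+/+, Plekhg5-/-, Plekhg5+/+ SOD1-G93A and Plekhg5-/- SOD1-G93A. All mice were kept on a C57BL/6 background, Plekhg5-/- mice are deficient in Plekhg5, and SOD1-G93A mice came from a low copy line that carries a human SOD1 gene with an amyotrophic lateral sclerosis (ALS) mutation and develops slowly progressing motoneuron disease. The interaction is the response to the transgene without Plekhg5 (Plekhg5-/- SOD1-G93A against Plekhg5-/-) minus the response with Plekhg5 (Plekhg5+/+ SOD1-G93A against Plekhg5+/+), on the log2 scale. A positive value means that the transgene response was more positive without Plekhg5, and a negative value that it was more negative. The question is which parts of the transgene response, by pathway and cell type, depend on Plekhg5, beyond the markers of microglia.

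Plekhg5 is a guanine exchange factor of the nervous system that activates the small GTPase Rab26 and promotes the autophagy of synaptic vesicles, and mutations in the human gene cause motoneuron disease. In mutant SOD1 mice, motoneurons degenerate while microglia and astrocytes around them take on reactive states, and blood vessels, myelinating cells and the chaperones that handle misfolded protein are also drawn into the disease. Whole spinal cord holds RNA of all these cells, so that in these libraries fewer cells of a type and less RNA per cell cannot be told apart. Pieces of the spinal roots and meninges, where left on the cord, can add RNA of Schwann cells and fibroblasts.

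The targeted genes followed their labels. Plekhg5 (chromosome 4, 152072433 to 152115404, GRCm38.p6) was measured at 19.4, 24.5 and 24.96 CPM in Plekhg5+/+, 3.28, 3.98 and 4.701 CPM in Plekhg5-/-, 21.5, 24.9 and 20.9 CPM in Plekhg5+/+ SOD1-G93A and 4.72, 3.92 and 4.14 CPM in Plekhg5-/- SOD1-G93A libraries, where CPM is the read count scaled to library size. The human SOD1 transcript reached 4421, 4919 and 5638 CPM in Plekhg5+/+ SOD1-G93A and 5002, 4904 and 5098 CPM in Plekhg5-/- SOD1-G93A libraries, against 0.153 to 5.47 CPM in the 6 libraries without the transgene. The transgene level thus overlapped between mice with and without Plekhg5, and mouse Sod1 had an interaction of -0.065 (SE 0.151, edgeR adjusted p = 0.901). Libraries held 30415643 to 38743628 counts. The first Plekhg5+/+ SOD1-G93A library stood apart from its group on the first principal component of all genes (47, against 17 and 16 for its group mates). On the second component the first Plekhg5+/+ library had 27.5 (0.836 and -1.4 for its group mates). The first Plekhg5-/- library had 21.5 there (-21.1 and -3.3 for its group mates). These non-transgenic libraries also had the lowest quality weights in limma's voom, 0.396 and 0.324. Y-linked transcripts marked 3, 2, 2 and 1 of the 3 libraries of the 4 genotypes in the order above, so that sex was not balanced between them.

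By edgeR's quasi-likelihood test with Benjamini-Hochberg adjustment, 0 of 20155 genes passed an adjusted p of 0.05 in the interaction (0%). An unadjusted p under 0.05 was reached by 1824 genes (9.05%), of which 779 had a positive interaction (3.87%) and 1045 a negative one (5.18%). DESeq2 called 95 genes without a fold-change prior (0.501%), 54 positive (0.285%) and 41 negative (0.216%), and 112 genes with the prior (0.611%). The 92 genes called by both DESeq2 settings all had an unadjusted edgeR p under 0.05. Values of the interaction given below therefore did not pass the main test, and counts of genes per list are counts at an unadjusted p under 0.05, to be read against the shares of 3.87% and 5.18% over all genes. The median interaction over all genes was -0.015.

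The 2 transgene responses that make up the interaction share no library. With Plekhg5, 498 genes changed (2.47%), 422 higher (2.09%) and 76 lower (0.377%), whereas without Plekhg5 the human SOD1 transcript was the only gene called (0.00496%). Without Plekhg5+/+ replicate 1 or 2, the number called with Plekhg5 was 4 and 2, and DESeq2 without a prior called 1159 with and 45 without Plekhg5. The 421 mouse genes that rose with Plekhg5 had a median log2 fold change of 1.085 there and of 0.27 without Plekhg5, where 384 of them kept the sign and 378 had a log2 response less than 1/2 as large. The 37 of these genes that are in a microglia list had medians of 1.41 with and 0.38 without Plekhg5, and the other 384 had medians of 1.06 and 0.26. The microglia lists hold only 16, 11 and 20 genes, so the 384 can include further genes that microglia express. Their medians therefore do not describe cells other than microglia alone. The 76 genes that fell with Plekhg5 had medians of -0.49 with and -0.03 without it.

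Genes chosen in one arm tend to be smaller in the other, and the interaction of genes chosen in this way uses the libraries that chose them, so these medians are a description. Read in the reverse direction, the 659 mouse genes higher without Plekhg5 at an unadjusted p under 0.05 (660 or 3.27% with human SOD1) had a median of 0.59 there and 0.14 with Plekhg5. Over 20154 genes the 2 responses had a Pearson correlation of 0.37 and a Spearman correlation of 0.15, where all genes of an arm share its 6 libraries. In 146 genes (0.724%) the transgenic libraries were apart from their controls in both arms and in opposite directions. The plot of both responses shows where the cell types described below lie.

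**Figure D1:**
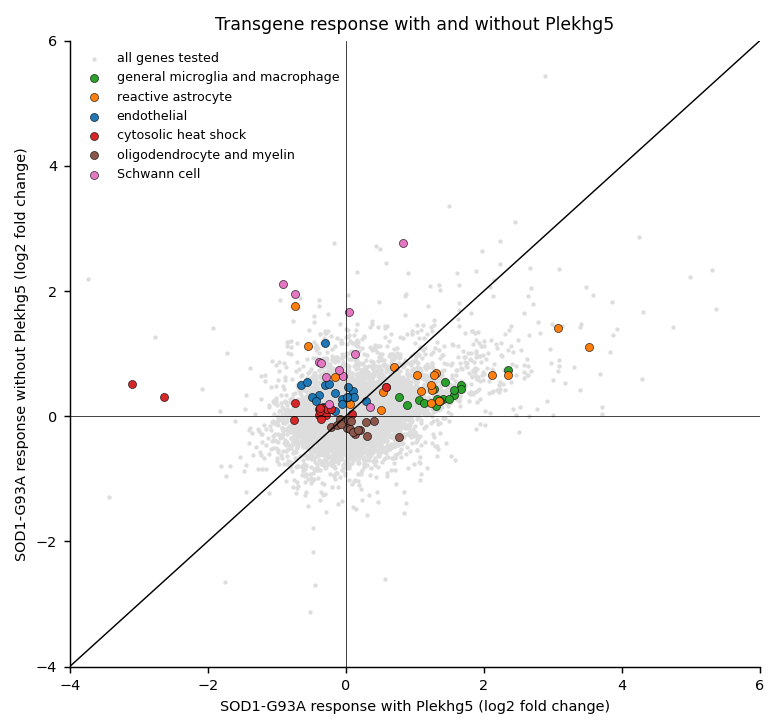
Log2 fold change of each gene tested in response to SOD1-G93A with Plekhg5 (horizontal axis) and without Plekhg5 (vertical axis), with members of 6 gene lists in colour and the line of equal response in black. The 16 microglia and macrophage genes lie to the right and below the line, most Schwann cell and endothelial genes above it, and Hspa1a and Hspa1b are the heat shock genes farthest to the left.

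Endothelial genes had positive interactions for the most part, none of which passed the main test. Of 20 endothelial markers, 19 had a positive interaction and 9 reached an unadjusted p under 0.05, 0 in the negative direction, with a median interaction of 0.46. The median transgene response was -0.15 with Plekhg5 and 0.32 without it. Angpt2, the Tie2 ligand that endothelial cells release when vessels are remodelled (chromosome 8, 18690263 to 18741562, GRCm38.p6), had the smallest p of all positive interactions. Its levels were 2.26, 2.27 and 1.75 CPM in Plekhg5+/+, 1.08, 1.33 and 1.29 CPM in Plekhg5-/-, 1.09, 1.35 and 0.9297 CPM in Plekhg5+/+ SOD1-G93A and 2.41, 2.19 and 2.098 CPM in Plekhg5-/- SOD1-G93A libraries. The 3 libraries of each single mutant genotype lay below all 6 libraries of Plekhg5+/+ and the double mutant, which overlapped each other. With Plekhg5, Angpt2 fell by 0.90 on the log2 scale (edgeR adjusted p = 0.0257), without Plekhg5 the value was 0.85, and the interaction was 1.75 (SE 0.254, edgeR adjusted p = 0.235), and 1.63 to 1.92 when 1 library at a time was omitted.

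Ly6c1, a surface antigen of brain and spinal endothelium (chromosome 15, 75044018 to 75048920), was measured at 30.999, 31.8 and 32.9 CPM in Plekhg5+/+, 19.2, 23.1 and 19.2 CPM in Plekhg5-/-, 21.4, 22.3 and 21.4 CPM in Plekhg5+/+ SOD1-G93A and 35.5, 31.1 and 23.6 CPM in Plekhg5-/- SOD1-G93A libraries. The single mutants were again the lower groups, below every Plekhg5+/+ library, and the interaction was 1.11 (SE 0.173, edgeR adjusted p = 0.235). Ly6c1 has near-identical copies beside it and its count was not whole in 6 libraries, so its reads are partly shared. Sox18, a transcription factor of endothelial cells, was measured at 7.28, 5.89 and 6.34 CPM in Plekhg5+/+, 5.003, 5.63 and 4.54 CPM in Plekhg5-/-, 3.88, 4.52 and 4.05 CPM in Plekhg5+/+ SOD1-G93A and 9.07, 6.53 and 5.88 CPM in Plekhg5-/- SOD1-G93A libraries, with an interaction of 1.15 (SE 0.227, edgeR adjusted p = 0.338).

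Adgrl4, an adhesion receptor of endothelial cells, had levels of 30.5, 34.9 and 28.4 CPM in Plekhg5+/+, 18.4, 22.6 and 23.8 CPM in Plekhg5-/-, 22.4, 22.6 and 20.5 CPM in Plekhg5+/+ SOD1-G93A and 42.2, 31.3 and 24.8 CPM in Plekhg5-/- SOD1-G93A libraries. Here the double mutant spread from below to above the Plekhg5+/+ libraries, while both single mutants lay lower, and the interaction was 1.12 (SE 0.227, edgeR adjusted p = 0.338). Vwf, the clotting factor carrier stored in endothelial granules, was highest in the double mutant, at 50.6, 36.8 and 30.2 CPM against 18.4, 11.98 and 27.7 CPM in Plekhg5+/+ SOD1-G93A libraries, with an interaction of 1.48 (SE 0.401, edgeR adjusted p = 0.375). Cdh5, the cadherin of endothelial junctions, had an interaction of 0.75 (SE 0.213, edgeR adjusted p = 0.39).

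Pecam1, Flt1, Esam and Nos3, which encode an adhesion molecule, a VEGF receptor, a junction protein and endothelial nitric oxide synthase, had interactions of 0.796, 0.72, 0.8004 and 0.68. The glucose transporter Slc2a1 was near the list median of 0.46, with 0.47. The tight junction gene Cldn5 had 0.33 and the organic anion transporter Slco1a4 -0.06. Ptgs2, the inducible prostaglandin synthase, is in none of the gene lists, the endothelial list included. It was among the 10 leading positive genes, at 8.44, 9.73 and 3.49 CPM in Plekhg5+/+, 0.731, 1.05 and 1.64 CPM in Plekhg5-/-, 1.62, 1.39 and 2.699 CPM in Plekhg5+/+ SOD1-G93A and 4.996, 2.03 and 2.07 CPM in Plekhg5-/- SOD1-G93A libraries, with an interaction of 3.325 (SE 0.671, edgeR adjusted p = 0.338). Pericyte and smooth muscle markers had a median interaction of 0.076, with 0 of 14 at an unadjusted p under 0.05. When 1 library at a time was omitted, the endothelial median ran from 0.31 to 0.67, with 7 to 13 of the 20 markers at an unadjusted p under 0.05. DESeq2 without a prior called Ly6c1, Sox18 and Esam of the list, and of the other genes above Angpt2, Adgrl4 and Ptgs2.

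**Figure D2:**
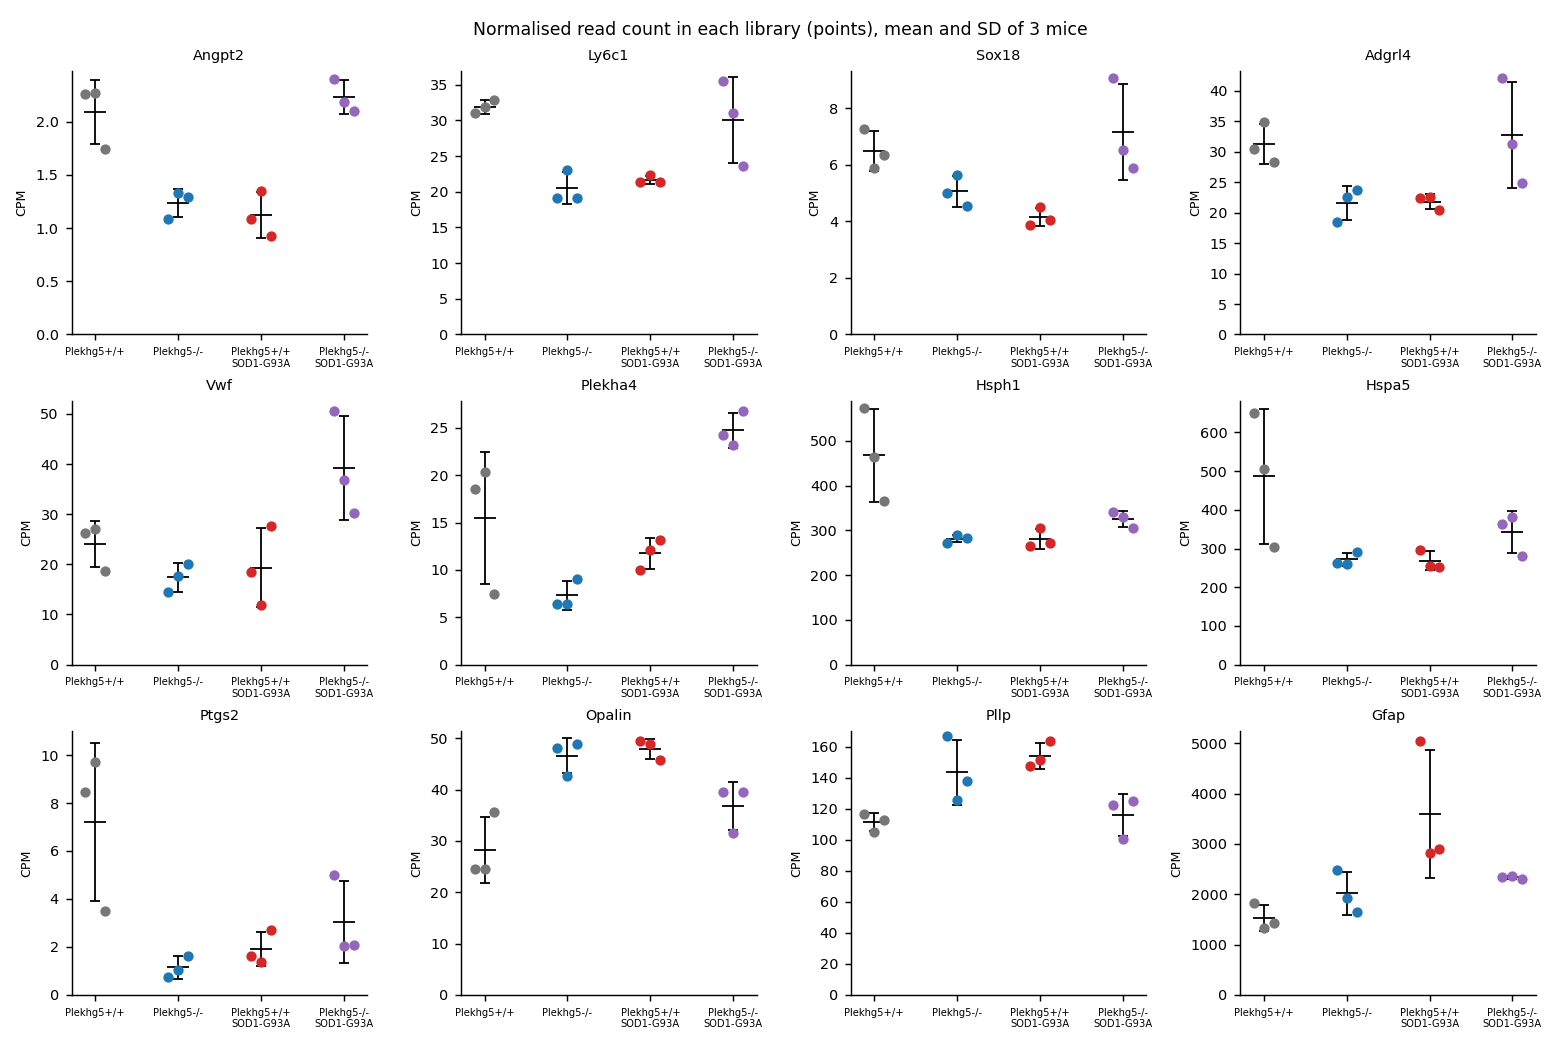
Normalised read count (CPM, vertical axis from 0) of 12 genes in each library (points) by genotype, with the mean and the SD of 3 mice in black. Angpt2, Ly6c1, Sox18 and Adgrl4 are low in both single mutants and higher in Plekhg5+/+ and the double mutant, and Opalin and Pllp show the opposite order.

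Basement membrane genes lay with the endothelial genes. Among 23 genes of the extracellular matrix and its turnover, 9 were positive and 3 negative at an unadjusted p under 0.05. The positive ones were the laminins Lamb1 (1.19 (SE 0.242, edgeR adjusted p = 0.338)), Lama2 (0.49), Lama4 (0.78) and Lamc1 (0.23), the collagens Col4a1 (0.68), Col4a2 (0.62) and Col18a1 (0.74), the linker Nid1 (0.47) and the protease inhibitor Timp3 (0.42). The negative ones were Mmp12 (-2.76), Mmp19 (-1.33) and Timp1 (-1.67), 2 proteases and an inhibitor that rose with the transgene when Plekhg5 was present, by 4.99, 1.65 and 3.08 on the log2 scale. Lamb1 was measured at 13.9, 12.8 and 10.04 CPM in Plekhg5+/+, 7.67, 10.003 and 11.3 CPM in Plekhg5-/-, 7.52, 11.5 and 9.297 CPM in Plekhg5+/+ SOD1-G93A and 15.8, 18.2 and 16.99 CPM in Plekhg5-/- SOD1-G93A libraries, with all 3 double mutant libraries above the other 9. Of 23 angiogenesis genes, 5 were positive at an unadjusted p under 0.05, among them Vegfa (0.38), and none was negative.

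Schwann cell markers, which can report peripheral roots left on the cord, had the most positive median of the 44 lists, 1.06. Of 12 markers, 9 were positive at an unadjusted p under 0.05 and 0 negative. Prx, which organises peripheral myelin, had an interaction of 2.69 (SE 0.717, edgeR adjusted p = 0.396), Ncmap, a protein of noncompact myelin, of 1.24 (SE 0.273, edgeR adjusted p = 0.338) and the sodium channel gene Scn7a of 1.21 (SE 0.2705, edgeR adjusted p = 0.338). DESeq2 without a prior called Ncmap, Drp2 and Scn7a. Plekha4, a pleckstrin homology protein outside the lists, was lower in the third of the Plekhg5+/+ libraries than in the other two, at 18.5, 20.4 and 7.47 CPM in Plekhg5+/+, 6.44, 6.45 and 9.02 CPM in Plekhg5-/-, 9.97, 12.1 and 13.2 CPM in Plekhg5+/+ SOD1-G93A and 24.2, 23.2 and 26.8 CPM in Plekhg5-/- SOD1-G93A libraries, with an interaction of 2.16 (SE 0.413, edgeR adjusted p = 0.338).

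The mean log2 level of the 12 Schwann cell genes relative to the Plekhg5+/+ mean was 0.19, 0.41 and -0.59 in Plekhg5+/+, -0.65, -0.43 and -0.27 in Plekhg5-/-, -0.48, 0.074 and 0.027 in Plekhg5+/+ SOD1-G93A and 0.61, 0.62 and 0.83 in the double mutant. Their summed level was 346 to 645 CPM, 344 to 400.5 CPM, 362 to 499 CPM and 642 to 841 CPM in the same order. Schwann cell markers thus moved in the same direction as the endothelial and basement membrane genes. The part of root tissue in those results was not tested. Fibroblast and meningeal genes had a median interaction of 0.72, with Col1a1 (0.72) and Col1a2 (0.79) at an unadjusted p under 0.05 and Dcn at 0.99. Without the second double mutant library the fibroblast median was 0.43, whereas the Schwann cell median ran from 0.89 to 1.28 over all 12 libraries left out. The Hox genes, which mark the level along the cord, had a median interaction of 0.083, with 0 of 16 at an unadjusted p under 0.05 by edgeR. Hoxd10 had 0.88, and 0.51 to 1.13 with 1 library left out, Hoxc6 0.255 and Hoxb8 -0.115, none called in any alternative. A median over genes of different levels does not show that the level was equal, which was not tested.

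**Figure D3:**
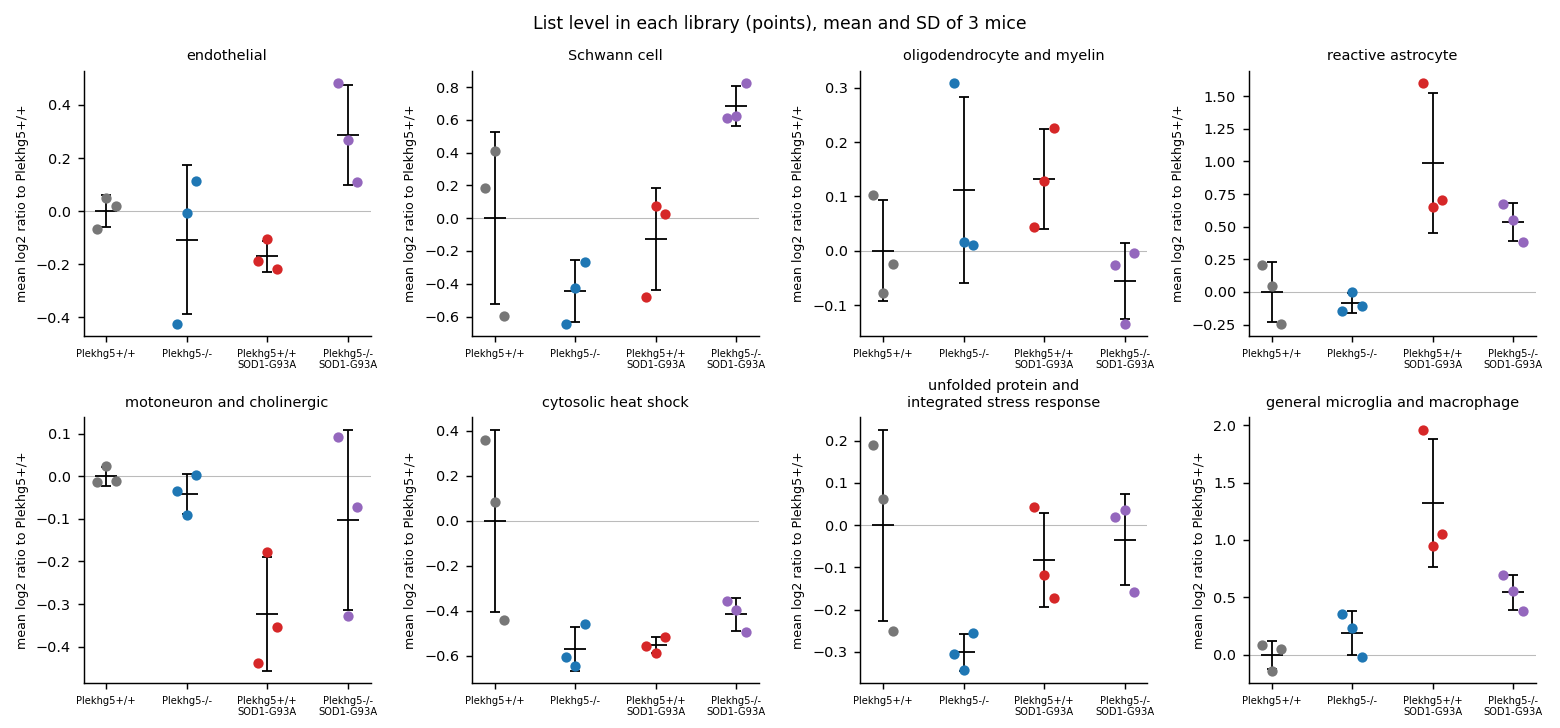
Mean log2 ratio of the members of 8 gene lists to the Plekhg5+/+ mean in each library (points) by genotype, with the mean and SD of 3 mice in black and a grey line at 0. Endothelial and Schwann cell levels are highest in the double mutant, reactive astrocyte and microglia levels are highest in Plekhg5+/+ SOD1-G93A with 1 library above the other 2, and heat shock levels are highest in 2 of the 3 Plekhg5+/+ libraries.

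Heat shock chaperones and chaperones of the endoplasmic reticulum also had positive interactions, with Plekhg5+/+ the highest genotype on average. Of 16 heat shock genes, Hspd1 and Hspe1 of mitochondria included, 11 were positive at an unadjusted p under 0.05 and 0 were negative, with a median of 0.43. Hsph1, a nucleotide exchange factor for Hsp70, was measured at 574, 464 and 365 CPM in Plekhg5+/+, 272, 289.8 and 283 CPM in Plekhg5-/-, 264, 305 and 272 CPM in Plekhg5+/+ SOD1-G93A and 341, 329.8 and 305 CPM in Plekhg5-/- SOD1-G93A libraries. The 3 Plekhg5+/+ libraries lay above the other 9. With Plekhg5, the transgene was accompanied by a fall of Hsph1 by 0.74 (edgeR adjusted p = 0.0146), without Plekhg5 the value was 0.21, and the interaction was 0.95 (SE 0.176, edgeR adjusted p = 0.338). Such a separation of Plekhg5+/+ above all other libraries was found for 203 genes (1.01%), and for 3 of the 16 heat shock genes, Hsph1, Hsp90aa1 and Dnaja1.

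Hspa1a and Hspa1b, the stress-inducible Hsp70 genes, had the largest values of the list. Hspa1a was measured at 99.8, 69.7 and 16.8 CPM in Plekhg5+/+, 8.602, 9.099 and 19.6 CPM in Plekhg5-/-, 9.41, 8.98 and 11.6 CPM in Plekhg5+/+ SOD1-G93A and 18.5, 16.1 and 11.7 CPM in Plekhg5-/- SOD1-G93A libraries. Its first and second Plekhg5+/+ libraries were far above all others, and the third overlapped Plekhg5-/- and the double mutant. The interaction was 2.95 (SE 0.819, edgeR adjusted p = 0.403) for Hspa1a and 3.62 (SE 1.02, edgeR adjusted p = 0.406) for Hspa1b, whose sequences are nearly identical and whose counts were not whole in 10 and 12 libraries. Hsp90aa1, an inducible Hsp90, and Hspa8, the constitutive Hsp70, had interactions of 0.51 (SE 0.119, edgeR adjusted p = 0.338) and 0.37 (SE 0.119, edgeR adjusted p = 0.407). The co-chaperone Dnajb1 had 0.68 (SE 0.3001, edgeR adjusted p = 0.534). The small heat shock proteins Hspb1 and Hspb8 were at -0.12 and -0.048.

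The 20 genes of the unfolded protein and integrated stress responses had a median interaction of 0.17. Of these, 8 were positive at an unadjusted p under 0.05 and 0 negative. All 8 act in folding or quality control of the endoplasmic reticulum or switch it on: Hspa5 (1.19), Hsp90b1 (0.68), Pdia6 (0.69), Pdia4 (0.75), Sdf2l1 (1.38), Calr (0.59), Herpud1 (0.44) and the transcription factor Xbp1 (0.85). Targets and factors of the integrated stress response did not reach it, with 0.082 for Atf4, 0.016 for Ddit3, 0.057 for Atf3, 0.14 for Chac1 and 0.072 for Trib3. Hspa5, the main Hsp70 of the endoplasmic reticulum, was measured at 651, 504 and 303 CPM in Plekhg5+/+, 263, 261 and 292 CPM in Plekhg5-/-, 296, 255 and 253 CPM in Plekhg5+/+ SOD1-G93A and 365, 383 and 281 CPM in Plekhg5-/- SOD1-G93A libraries. Plekhg5+/+ was again the widest group, and its lowest library overlapped the double mutant. The interaction was 1.19 (SE 0.306, edgeR adjusted p = 0.375). Hyou1, the related chaperone that exchanges nucleotide on Hspa5, had 0.65 (SE 0.1298, edgeR adjusted p = 0.338). The mean level of the list was 0.19, 0.062 and -0.25 in Plekhg5+/+ and 0.019, 0.036 and -0.16 in double mutant libraries, which overlap.

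A promoter element recurs in the endoplasmic reticulum group. The ER stress response element, which ATF6 binds with NF-Y and which reads CCAAT and CCACG with 9 bases between them, was searched on both strands of the RefSeq windows from 250 bases before to 50 bases after each start (GRCm38.p6). It was found in 4 of the 20 genes of the list (20%), and in 0.137% of 27025 genes with a window. The list was drawn up from known genes of this response, so this share describes the list and is no test of the interaction. The carriers Hspa5, Hsp90b1, Calr and Pdia6 are all among the 8 genes above, and their 250 bases before the start are shown with the element in capitals, at chr2:34771840-34772089, plus strand for Hspa5, chr10:86705445-86705694, minus strand for Hsp90b1, chr8:84846932-84847181, minus strand for Calr and chr12:17266339-17266588, plus strand for Pdia6. Hsp90b1 holds it on both strands.
Hspa5: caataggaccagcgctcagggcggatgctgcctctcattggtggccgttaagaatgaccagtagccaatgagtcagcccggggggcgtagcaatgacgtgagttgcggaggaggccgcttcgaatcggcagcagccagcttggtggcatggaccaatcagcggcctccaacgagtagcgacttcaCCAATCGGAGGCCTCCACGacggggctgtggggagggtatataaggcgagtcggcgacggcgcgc
Hsp90b1: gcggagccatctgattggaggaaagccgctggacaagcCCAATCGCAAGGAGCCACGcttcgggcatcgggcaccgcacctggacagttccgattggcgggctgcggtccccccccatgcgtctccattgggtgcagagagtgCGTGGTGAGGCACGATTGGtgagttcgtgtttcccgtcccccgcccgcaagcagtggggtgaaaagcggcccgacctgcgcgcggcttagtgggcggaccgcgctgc
Calr: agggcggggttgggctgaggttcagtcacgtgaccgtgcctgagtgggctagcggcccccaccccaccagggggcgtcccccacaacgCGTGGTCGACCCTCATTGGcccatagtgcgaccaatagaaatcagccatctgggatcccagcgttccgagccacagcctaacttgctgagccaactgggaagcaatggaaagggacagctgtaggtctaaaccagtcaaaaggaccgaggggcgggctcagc
Pdia6: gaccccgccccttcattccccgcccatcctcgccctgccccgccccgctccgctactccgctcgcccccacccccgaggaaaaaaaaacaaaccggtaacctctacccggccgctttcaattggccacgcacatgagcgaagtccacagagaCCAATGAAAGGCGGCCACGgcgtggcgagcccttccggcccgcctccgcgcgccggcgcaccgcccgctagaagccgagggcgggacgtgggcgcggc
The heat shock element, searched as GAA, TTC and GAA with 2 bases between neighbours, was found in 3 of 12 heat shock genes with a window (25%), Hsph1, Hspd1 and Hspe1, and in 0.662% of all genes with a window. Hspd1 and Hspe1, the mitochondrial chaperonin pair, share it between their divergent starts, here at chr1:55087933-55088182, minus strand as read for Hspd1, with the overlapping elements in capitals.
Hspd1: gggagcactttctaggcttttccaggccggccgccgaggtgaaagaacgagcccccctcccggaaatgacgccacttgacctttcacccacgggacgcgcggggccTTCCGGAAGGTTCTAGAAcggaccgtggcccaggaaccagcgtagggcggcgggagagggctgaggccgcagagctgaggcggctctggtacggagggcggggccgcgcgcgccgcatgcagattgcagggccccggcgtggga
Hspd1 had an interaction of 0.38 (SE 0.113, edgeR adjusted p = 0.403) and Hspe1 of 0.304 (SE 0.237, edgeR adjusted p = 0.671). The heat shock list was likewise drawn up from known genes, so its share with an element describes the list. A match of letters does not show that a factor was bound.

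DESeq2 without a prior called Hsph1, Hsp90aa1 and Hspa1b of the heat shock list and Hsp90b1 and Sdf2l1 of the unfolded protein list. The chaperone values moved with the choice of Plekhg5+/+ libraries. Without the third Plekhg5+/+ library, edgeR called 40 genes in the interaction, 37 positive and 3 negative, among them Hsph1, Hspa1a, Hsp90ab1, Bag3, Hspa5, Hsp90b1, Xbp1, Pdia4, Pdia6 and Sdf2l1, beside the Schwann cell genes Drp2 and Egr2, Plekha4, Angpt2 and Ly6c1. Without the first or the second, it called 0. The heat shock median ran from 0.31 to 0.52 and the unfolded protein median from 0.17 to 0.28 with each library left out, and 10 to 13 and 7 to 9 members were at an unadjusted p under 0.05. The glucocorticoid and immediate early genes, which react to handling, had medians of 0.21 and 0.201 and turned to -0.079 and as low as -0.037 with 1 library left out. Their part in the chaperone result was not tested.

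Reactive astrocyte genes had negative interactions. With Plekhg5, 12 of 20 reactive astrocyte genes rose (2.09% of all genes). The median response over the list was 1.16 with Plekhg5 and 0.64 without it. Without Plekhg5 none passed by edgeR, and 7 were higher at an unadjusted p under 0.05 (3.27% of all genes). The median interaction was -0.62, with 15 negative and 5 positive members. At an unadjusted p under 0.05, 8 were negative and 2 positive. DESeq2 without a prior called 0 of the list. Gfap, the intermediate filament of astrocytes, was measured at 1828, 1333 and 1421 CPM in Plekhg5+/+, 2479, 1920.0 and 1651 CPM in Plekhg5-/-, 5054, 2825 and 2897 CPM in Plekhg5+/+ SOD1-G93A and 2336, 2363 and 2300.0 CPM in Plekhg5-/- SOD1-G93A libraries. All 3 Plekhg5+/+ SOD1-G93A libraries lay above all 9 others, the double mutant overlapped Plekhg5-/-, and the interaction was -1.02 (SE 0.309, edgeR adjusted p = 0.406). Ptx3, a secreted pentraxin, had an interaction of -1.7003 (SE 0.501, edgeR adjusted p = 0.403) and Serpina3n, a protease inhibitor, of -1.47 (SE 0.595, edgeR adjusted p = 0.511). Steap4 and Cp, both of iron and copper handling, went the other way, at 1.67 and 0.79. Genes of astrocyte identity such as Aqp4 and Slc1a2 had a list median of -0.088.

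One library weighs on these values. The mean level of the reactive astrocyte list was 1.603, 0.65 and 0.702 in the 3 Plekhg5+/+ SOD1-G93A libraries and 0.67, 0.55 and 0.38 in the double mutant, and without the first Plekhg5+/+ SOD1-G93A library the median interaction was -0.18 in place of -0.62. The same omission took the interferon list from -0.93 to -0.17, MHC class I from -0.51 to -0.19, proliferation from -0.48 to -0.055, complement from -0.44 to -0.14, lysosome from -0.43 to -0.21, general microglia and macrophage from -1.13 to -0.695, disease-associated microglia from -1.03 to -0.577 and chemokines and cytokines from -0.956 to -0.624. All these medians stayed negative.

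**Figure D4:**
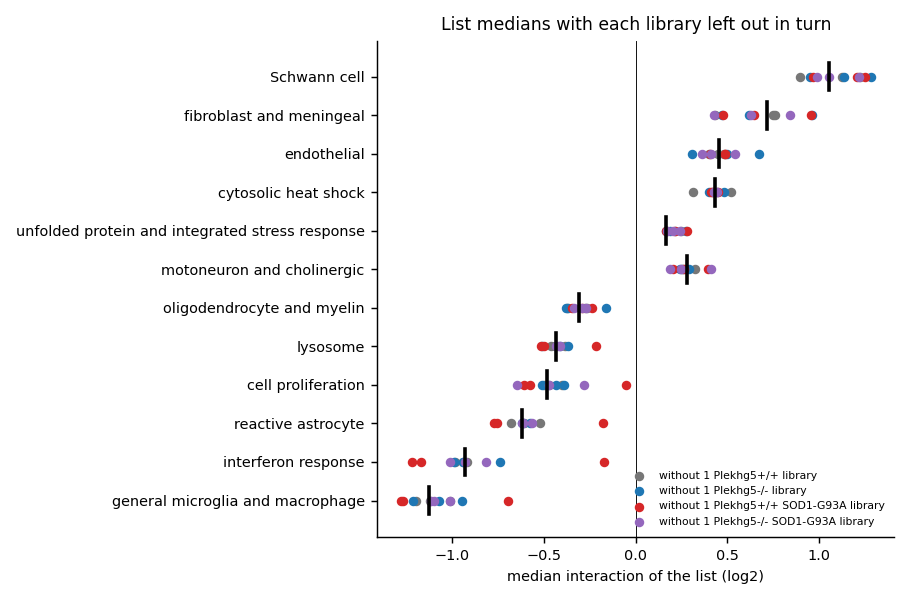
Median interaction (log2) of 12 gene lists picked from those described in the text, with all libraries (black bar) and after omitting 1 library at a time (points, coloured by the genotype of the omitted library). The medians of these 12 lists keep their side of 0. Those of several lists not plotted do not, such as the T and NK lymphocyte, astrocyte identity, pericyte and smooth muscle, autophagy, glucocorticoid and immediate early lists. The interferon, reactive astrocyte and proliferation medians come nearest to 0 without 1 Plekhg5+/+ SOD1-G93A library.

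Beyond the astrocytes, 14 of 25 lysosome genes rose with the transgene when Plekhg5 was present (2.09% of all genes). Without Plekhg5, 0 passed by edgeR and 4 were higher at an unadjusted p under 0.05 (3.27% of all genes). Of the 25 genes, 5 are also in a microglia list. The median interaction was -0.43, and 12 genes were negative at an unadjusted p under 0.05. These included the cathepsins Ctss (-1.14), Ctsz (-0.91), Ctsd (-0.82), Ctsh (-0.68), Ctsl (-0.59) and Ctsb (-0.38), and the tetraspanin Cd63 (-0.697). Lamp1, Psap and Npc1, which most cells express, were at -0.21, -0.093 and -0.02. DESeq2 without a prior called 1 gene of the lysosome list, Cd68, which is also in a microglia list. Of 21 complement genes, 6 of them also in a microglia list, 8 were negative and 1, the regulator Cd55, positive (0.53). The initiators C1qa, C1qb and C1qc had -1.24, -1.12 and -1.22, and C4b, a component that astrocytes and oligodendrocytes also make, had -1.16 (SE 0.333, edgeR adjusted p = 0.403). DESeq2 without a prior called 0 of the 21 complement genes.

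For comparison, the 16 general microglia and macrophage genes had the most negative median, -1.13, with 14 negative at an unadjusted p under 0.05, and 1.38 with and 0.29 without Plekhg5 in the arms. Their mean level in the double mutant, 0.69, 0.56 and 0.38, lay below that of Plekhg5+/+ SOD1-G93A, 1.96, 0.95 and 1.05. Microglial markers thus moved with the lysosome, complement and astrocyte lists, and their part in those results was not tested. Disease-associated and homeostatic microglia lists had medians of -1.03 and -0.64, chemokines and cytokines -0.96, interferon response genes -0.93 with 2 of 22 at an unadjusted p under 0.05, and MHC class I genes -0.51 with 3 of 18. These 2 counts were 10 and 9 without the second Plekhg5+/+ SOD1-G93A library and 14 and 9 without the third, and the medians were nearer to 0 without the first, as given above. Il33, an alarmin of astrocytes and oligodendrocytes within the cytokine list, had -0.68 (SE 0.145, edgeR adjusted p = 0.338). Proliferation genes had -0.48, with 4 of 22, and 0 to 7 of 22 with 1 library left out. T and NK lymphocyte genes, of which 8 of 17 were abundant enough to test, had 0.62 and turned to -0.27 without the second double mutant library.

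Oligodendrocyte genes had negative interactions of small size. Of 16 genes of oligodendrocytes and central myelin, 8 were negative at an unadjusted p under 0.05 and 0 positive, with a median of -0.31 (0.092 with and -0.17 without Plekhg5). Opalin, a membrane glycoprotein of central myelin (chromosome 19, 41061959 to 41077113, GRCm38.p6), had the smallest p of the negative interactions once predicted gene models are set aside. It was measured at 24.4, 24.6 and 35.7 CPM in Plekhg5+/+, 48.2, 42.7 and 48.9 CPM in Plekhg5-/-, 49.4, 48.8 and 45.8 CPM in Plekhg5+/+ SOD1-G93A and 39.5, 31.5 and 39.5 CPM in Plekhg5-/- SOD1-G93A libraries. The 6 single mutant libraries lay above the 6 others. With Plekhg5, Opalin rose in transgenic mice by 0.76 (edgeR adjusted p = 0.0165), without Plekhg5 the value was -0.34, and the interaction was -1.103 (SE 0.189, edgeR adjusted p = 0.329), and -1.29 without the third Plekhg5+/+ library, where edgeR called it.

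Pllp, a tetraspan protein of myelin membranes outside the list, was measured at 117, 105 and 113 CPM in Plekhg5+/+, 167, 126 and 138 CPM in Plekhg5-/-, 147, 151 and 163 CPM in Plekhg5+/+ SOD1-G93A and 122, 101 and 125 CPM in Plekhg5-/- SOD1-G93A libraries, with the same order of genotypes and an interaction of -0.77 (SE 0.148, edgeR adjusted p = 0.338). Aspa, the aspartoacylase of oligodendrocytes, had -0.63 (SE 0.159, edgeR adjusted p = 0.348), Trf, which encodes transferrin, -0.48 (SE 0.154, edgeR adjusted p = 0.412), and Mag, Mog, Cnp and Cldn11 had -0.42, -0.41, -0.35 and -0.396. Mbp, which encodes myelin basic protein, was closer to 0, at -0.196. The oligodendrocyte progenitor list had a median of -0.15, and of -0.0305 without the third double mutant library. DESeq2 without a prior called Opalin of the list. Without the first Plekhg5-/- library the oligodendrocyte median was -0.16, with 4 of 16 genes at an unadjusted p under 0.05.

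Motoneuron genes had positive interactions of small size. The 15 cholinergic and motoneuron genes had a median response of -0.35 with Plekhg5 and -0.067 without, and a median interaction of 0.28, with 14 of 15 positive and 2 at an unadjusted p under 0.05. That count was 8 without the second library of Plekhg5+/+ SOD1-G93A or of the double mutant, where the median reached at most 0.41, and 0 to 3 without any other library. Chodl, a marker of fast motoneurons, was measured at 42.4, 41.5 and 39.5 CPM in Plekhg5+/+, 41.5, 38.7 and 43.95 CPM in Plekhg5-/-, 17.5, 29.3 and 22.6 CPM in Plekhg5+/+ SOD1-G93A and 34.3, 20.7 and 30.9 CPM in Plekhg5-/- SOD1-G93A libraries. It fell by 0.83 with Plekhg5 (edgeR adjusted p = 0.0387) and had -0.53 without, and the interaction of 0.301 (SE 0.257, edgeR adjusted p = 0.694) had an SE nearly as large. Chat, the acetylcholine synthase, had 0.33 (SE 0.155, edgeR adjusted p = 0.555), the neurofilament gene Nefm 0.41 (SE 0.1698, edgeR adjusted p = 0.505) and the transcription factor Isl2 0.71 (SE 0.275, edgeR adjusted p = 0.48). The double mutant libraries ranged from -0.33 to 0.093 in the mean level of the list and the Plekhg5+/+ SOD1-G93A libraries from -0.44 to -0.18, which overlap.

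Genes of the route on which Plekhg5 acts had medians near that of all genes. The 23 autophagy genes had a median interaction of -0.024 with 1 at an unadjusted p under 0.05, and the 21 genes of secretory autophagy and the Rab26 route had 0.01 with 2. With 1 library left out, the medians of both lists ran from -0.0693 to 0.0416, and up to 5 and 6 members were at an unadjusted p under 0.05. Rab26, the GTPase activated by Plekhg5, had -0.11 (SE 0.1602, edgeR adjusted p = 0.831), and Sqstm1, the autophagy adaptor p62, had -0.068 (SE 0.107, edgeR adjusted p = 0.839). Synaptic vesicle and release genes had a median of 0.18, with 20 of 22 positive and 0 at an unadjusted p under 0.05 by edgeR. Without the first Plekhg5+/+ library, or without the second Plekhg5+/+ SOD1-G93A library, where the median was 0.273, 9 of 22 were at an unadjusted p under 0.05. Of the 16 lists without a passage of their own, the glucocorticoid list among them, medians ran from -0.30 to 0.21, with 14 positive and 16 negative members of 281 at an unadjusted p under 0.05.

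**Figure D5:**
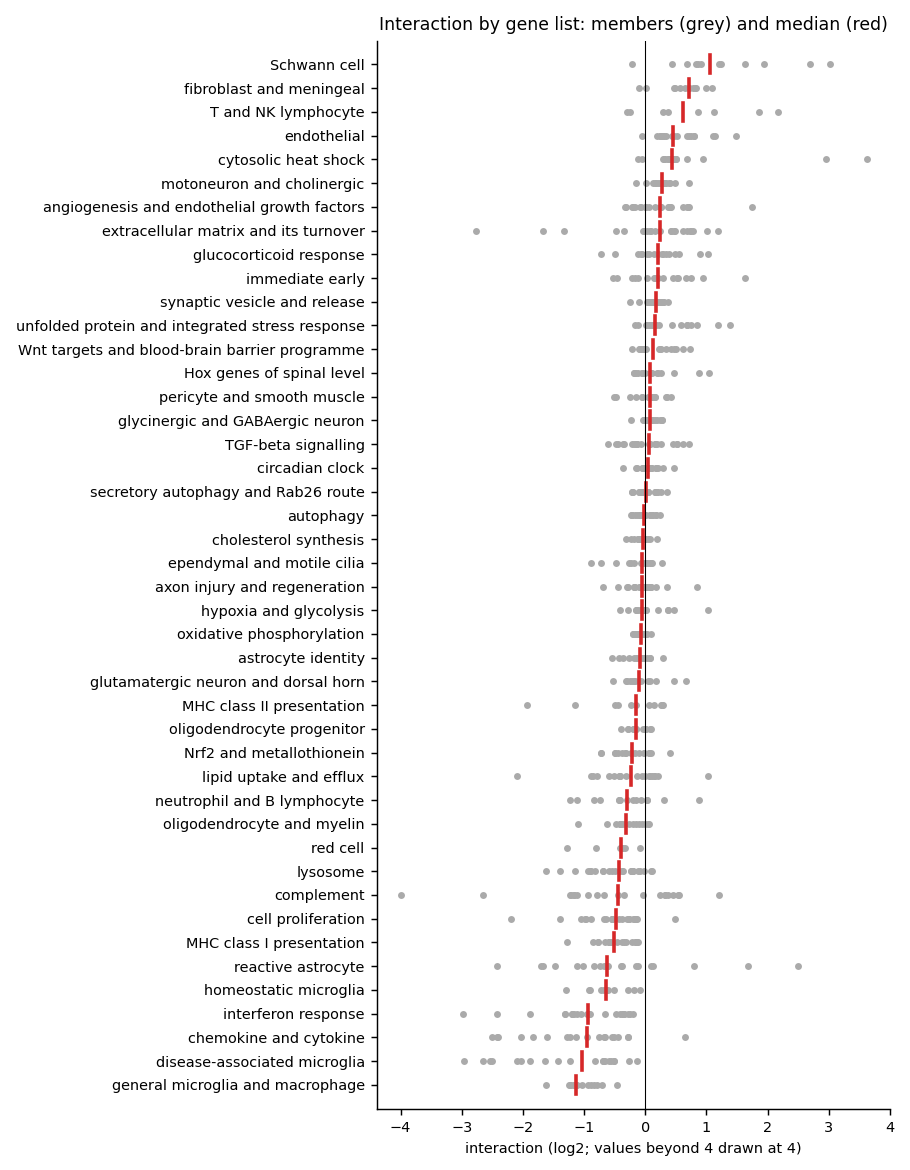
Interaction (log2) of the members (grey) of 44 gene lists and their median (red), sorted by the median. The Schwann cell list is at the top with 1.06, and the general microglia and macrophage list is at the bottom with -1.13.

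Other genes with the smallest unadjusted p came from no single cell type. Among the positive ones, Acer2, an alkaline ceramidase, had 0.82 (SE 0.168, edgeR adjusted p = 0.338). Among the negative ones, Hebp1, a haem-binding protein, had -0.93 (SE 0.176, edgeR adjusted p = 0.338), the G protein subunit Gnb4 -0.496 (SE 0.0967, edgeR adjusted p = 0.338), Tmod1, which caps actin filaments, -0.69 (SE 0.136, edgeR adjusted p = 0.338), and Snx15, a sorting nexin, -0.49 (SE 0.0974, edgeR adjusted p = 0.338). The elastase gene Cela1, the cadherin-related Cdhr2 and the channel-like Tmc3 had -1.18, -1.44 and -1.58. Cela1, Gnb4 and Tmc3 rose with the transgene when Plekhg5 was present, by 0.93, 0.48 and 1.49, and stood at -0.25, -0.015 and -0.084 without it. Genes within 10 Mb of Plekhg5, which can carry the flanking sequence of the targeted chromosome, held 14 of 222 at an unadjusted p under 0.05 (6.31%), with a median of -0.02.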

How the data were processed

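Total RNA of spinal cord from 12 mice was sequenced as stranded poly-A libraries. Per the labels, the authors used bcl2fastq 2.20.0.422, cutadapt 2.4, STAR 2.7.2b and featureCounts 1.6.4 with GRCm38.p6. The deposited values are estimated counts per gene, in which a read shared by several genes adds a fraction (17.3% to 18.1% of entries were not whole), and no comparison columns. Counts were rounded, filtered (filterByExpr, 20155 of 45906 genes kept), TMM-scaled and tested with edgeR 4.0.16 in R 4.3.3 in 1 fit of the 4 genotypes. All samples came from the labels, 0 columns lacked a sample, and replicates are called separate mice because the labels number them, so p-values measure only the spread between these libraries. CPM are TMM-normalised. With 3 mice in each genotype and 30415643 to 38743628 counts, spread between mice limits precision more than depth. DESeq2 1.42.0, limma 3.58.1, other filters, a replicate block, a Y-linked covariate and leaving out each library were alternatives.

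The members and the 44 lists were chosen with earlier results of these data known. Named genes were Plekhg5, human SOD1, Sod1, the 10 with the smallest unadjusted interaction p in each direction with a mean of at least 1 CPM and no predicted-model symbol (Gm, LOC, Rik), and of each list described the 2 with the smallest p and the most abundant. The 12 lists with the largest absolute median were to be described. The other lists described and all further genes were named after their values were seen. Level in a list is the mean over genes of log2 CPM (prior count 2) minus the Plekhg5+/+ mean. Some of these genes are not reported here. The scripts were checked on simulated data.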

Additional observations from a re-analysis of the deposited data

Results flagged for a closer look

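For 18 of 80 named genes the 3 transgenic libraries did not overlap their controls in either arm and lay in opposite directions with and without Plekhg5. Over all genes tested this held for 146 of 20155 (0.724%), and since many named genes were chosen for a small interaction p, their share is a description. The difference itself was tested as the interaction and passed for none of the 18 by edgeR, with adjusted p from 0.235 to 0.407.

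The 11 genes that were lower with and higher without Plekhg5 in transgenic mice were, with the log2 interaction, Acer2 (0.82), Adgrl4 (1.12), Angpt2 (1.75), Cdh5 (0.75), Hsp90aa1 (0.51), Hsp90b1 (0.68), Hspa8 (0.37), Hsph1 (0.95), Ly6c1 (1.11), Ptgs2 (3.325) and Sox18 (1.15). Most of these are endothelial genes or chaperones, which follows in part from how the named genes were picked. Over the full lists, 3 of 20 endothelial and 4 of 16 heat shock genes were apart in both arms and in opposite directions. The 7 genes that were higher with and lower without Plekhg5 were Cdhr2 (-1.44), Cela1 (-1.18), Hebp1 (-0.93), Opalin (-1.10), Pllp (-0.77), Snx15 (-0.49) and Tmod1 (-0.69).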

How the results depend on the processing

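DESeq2 without and with a fold-change prior called 95 and 112 genes in the interaction in place of 0, 1159 and 1190 in place of 498 in the transgene response with Plekhg5, and 45 and 41 in place of 1 without Plekhg5. Voom with quality weights called 0, 282 and 9. An adjusted p under 0.1 gave 1145 genes with Plekhg5. No filter on low counts gave 1 gene in the interaction, and at least 10 counts in every library gave 0 in the response without Plekhg5, since the filter removes human SOD1. With each library left out in turn, the counts ran from 0 to 40, from 2 to 771 and from 1 to 9. The largest moves were 40 in the interaction without Plekhg5+/+ replicate 3, 4 and 2 with Plekhg5 without Plekhg5+/+ replicates 1 and 2, and 9 without Plekhg5 when Plekhg5+/+ SOD1-G93A replicate 1 was left out. The cause was not tested. With a replicate block the counts were 0, 631 and 1. Same-numbered libraries correlated between -0.163 and 0.318 in their deviations from the group mean, over 0.1 in 5 of 18 pairs. Differently numbered libraries were not compared, so these values do not show whether the numbers pair the mice. The interaction changed sign for human SOD1 (0.00104 by DESeq2 with the prior), and with 1 library left out for Hbb-bs (-0.586 to 0.0539), Sod1 (-0.186 to 0.0541) and Timp2 (-0.0147 to 0.0588). Counts of list members with a library left out were added after seeing the data.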

Other observations

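Red cell genes, which report blood left in the tissue, had a median interaction of -0.399, and -0.022 without Plekhg5+/+ SOD1-G93A replicate 3. Hbb-bs, an adult beta-globin gene, was measured at 229.7, 395 and 272 CPM in Plekhg5+/+, 216, 179 and 189.9 CPM in Plekhg5-/-, 365, 305 and 644 CPM in Plekhg5+/+ SOD1-G93A and 290.4, 209 and 182 CPM in Plekhg5-/- SOD1-G93A libraries, with an interaction of -0.33 (SE 0.406, edgeR adjusted p = 0.789).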
